A study of Homo sapiens with 6 samples.

Results

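The subject is the UGT1A locus, a group of 9 glucuronosyltransferase genes on chromosome 2 that share their last exons, in HepG2 cells given formononetin. HepG2, an established human hepatoma line, still makes many of the proteins of hepatocytes, and formononetin is an isoflavone of legumes such as red clover. The members were the rows of the deposited gene count table whose Ensembl identifiers carry the symbols UGT1A1, UGT1A3, UGT1A4, UGT1A5, UGT1A6, UGT1A7, UGT1A8, UGT1A9 and UGT1A10 in GENCODE 29, and all 9 were found among 60564 rows with an Ensembl identifier. The formononetin group holds 3 libraries from wild-type HepG2 cells given formononetin for 72 h, with a dose of 625 whose unit the labels write as μm. The control group holds 3 libraries from wild-type HepG2 cells whose treatment label names only DMEM, the culture medium. No solvent control and no culture time are given for them. All 6 libraries were made from the same line with a stranded mRNA kit, and the labels leave unsaid whether each library had its own culture, so p-values describe the spread between libraries only, and that spread may be technical.

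Glucuronosyltransferases of the endoplasmic reticulum transfer glucuronic acid from UDP-glucuronic acid to bilirubin, bile acids, steroids, drugs and plant phenols such as isoflavones, which makes them water soluble and ready for export into bile or blood. Each UGT1A gene has its own promoter and its own first exon, which encodes the part of the enzyme that binds the substrate, and each first exon is spliced to the same downstream exons, which encode the part that binds UDP-glucuronic acid. In liver the locus is known for UGT1A1, the enzyme that conjugates bilirubin, and for induction of its members by foreign compounds through nuclear receptors, the aryl hydrocarbon receptor and NRF2.

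The locus spans chr2:233617645-233773310 of GRCh38 on the plus strand, 155.7 kb from the first to the last annotated base of UGT1A8 (GENCODE 29). Common exons 2 to 5 measure 132, 88, 220 and 1038 bases in UGT1A1. They start at chr2:233767034, and the first exons lie from 6.79 kb (UGT1A1) to 149.4 kb (UGT1A8) before that base. The common exons make up 59.7 to 63.4% of the full transcript of each member. The joint between first exon and exon 2 is printed for all 9 members, from the GENCODE 29 transcripts, because it shows which bases can tell the genes apart. The last 30 bases of each first exon are in lower case and the first 30 bases of exon 2 in capitals.
UGT1A1: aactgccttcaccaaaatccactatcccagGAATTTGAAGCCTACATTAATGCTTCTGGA
UGT1A3: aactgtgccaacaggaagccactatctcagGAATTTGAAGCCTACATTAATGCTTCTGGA
UGT1A4: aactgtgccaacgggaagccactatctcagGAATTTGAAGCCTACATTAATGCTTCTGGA
UGT1A5: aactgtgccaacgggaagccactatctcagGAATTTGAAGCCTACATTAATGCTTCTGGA
UGT1A6: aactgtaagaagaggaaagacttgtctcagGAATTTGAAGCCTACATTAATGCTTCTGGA
UGT1A7: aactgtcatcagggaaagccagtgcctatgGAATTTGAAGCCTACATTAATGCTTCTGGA
UGT1A8: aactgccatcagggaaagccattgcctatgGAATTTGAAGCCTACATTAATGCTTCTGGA
UGT1A9: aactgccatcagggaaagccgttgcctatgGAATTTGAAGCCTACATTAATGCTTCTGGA
UGT1A10: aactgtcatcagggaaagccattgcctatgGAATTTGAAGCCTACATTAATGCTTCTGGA
The capitals are the same in all members, and the lower-case ends fall into groups: UGT1A4 and UGT1A5 end in the same 30 bases, UGT1A3 is close to both, and UGT1A7, UGT1A8, UGT1A9 and UGT1A10 resemble one another.

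Over the whole first exon, UGT1A3, UGT1A4 and UGT1A5 were identical at 93.1 to 94.1% of aligned bases in their 3 pairs, with runs of up to 80 bases in common. UGT1A7, UGT1A8, UGT1A9 and UGT1A10 were identical at 91.7 to 94.4% in their 6 pairs. UGT1A1 stood at 57.4 to 66.7% against the other 8 members and UGT1A6 at 59.3 to 62.7%. No 100-base window of the first exon of UGT1A1, UGT1A3, UGT1A4, UGT1A5, UGT1A6 or UGT1A7 occurs in the first exon of another member, while 8.55% of those of UGT1A8 do. How the authors counted reads in shared exons is not given in the sources used here. The split of reads among the members is therefore uncertain, least so for UGT1A1 and UGT1A6 by first-exon sequence, and the sum over the locus is given beside the single genes.

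**Figure D1:**
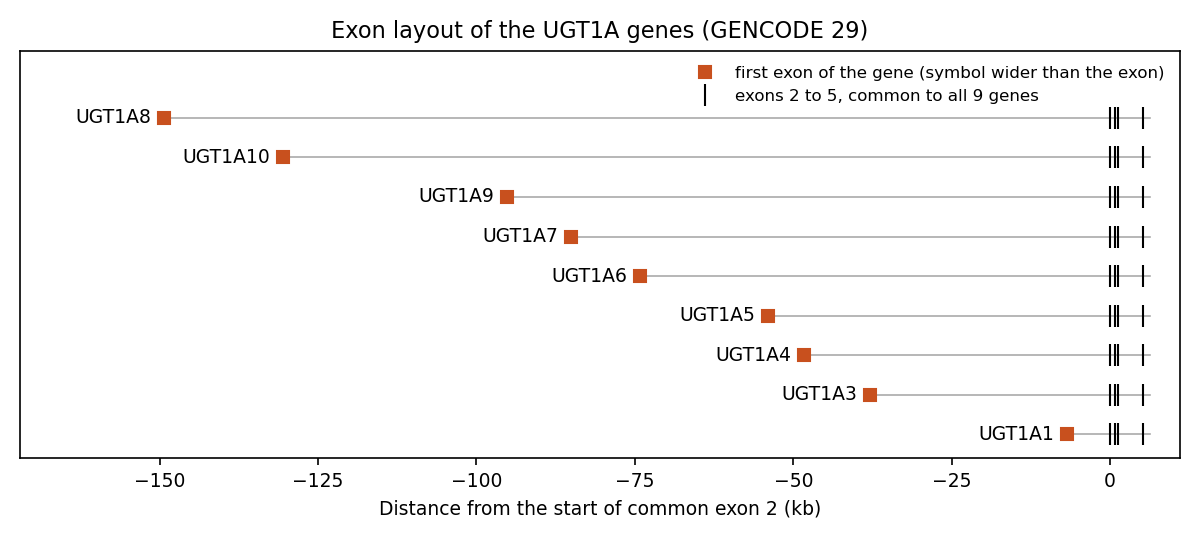
Exon layout of the 9 UGT1A genes in GENCODE 29, with the distance from the start of common exon 2 in kb on the x axis and a row for each gene. Squares mark first exons, which run from 149.4 kb (UGT1A8) to 6.79 kb (UGT1A1) before exon 2, and ticks mark the common exons.

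Promoter windows of 300 bases (250 before to 50 after the annotated start, RefSeq, GRCh38.p14) matched 8 of the 9 members, UGT1A6 with 2 starts, and held no entry for UGT1A10. They are printed for 4 members because these span the range of change described below: UGT1A1 carried most of the rise, UGT1A4 had the highest fold change, UGT1A3 was in between and UGT1A6 did not pass the test. Capitals mark matches, on either strand, to GCGTG (the core of the xenobiotic response element bound by the aryl hydrocarbon receptor) and TGACNNNGC (the core of the antioxidant response element bound by NRF2). No match in the printed windows overlaps another.
UGT1A1, chr2:233760020-233760319, plus strand: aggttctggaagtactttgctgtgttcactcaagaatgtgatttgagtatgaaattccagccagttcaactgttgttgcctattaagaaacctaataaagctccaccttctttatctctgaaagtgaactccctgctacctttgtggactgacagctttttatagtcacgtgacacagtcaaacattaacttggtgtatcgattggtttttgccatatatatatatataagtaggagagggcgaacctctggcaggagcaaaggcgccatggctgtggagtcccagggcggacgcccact
UGT1A3, chr2:233728792-233729091, plus strand: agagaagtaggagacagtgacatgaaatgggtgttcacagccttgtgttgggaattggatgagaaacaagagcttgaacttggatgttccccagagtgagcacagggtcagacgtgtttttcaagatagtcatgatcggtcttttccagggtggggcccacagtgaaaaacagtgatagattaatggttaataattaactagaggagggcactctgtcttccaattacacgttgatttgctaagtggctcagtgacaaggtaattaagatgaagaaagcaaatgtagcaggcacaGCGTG
UGT1A4, chr2:233718486-233718785, plus strand: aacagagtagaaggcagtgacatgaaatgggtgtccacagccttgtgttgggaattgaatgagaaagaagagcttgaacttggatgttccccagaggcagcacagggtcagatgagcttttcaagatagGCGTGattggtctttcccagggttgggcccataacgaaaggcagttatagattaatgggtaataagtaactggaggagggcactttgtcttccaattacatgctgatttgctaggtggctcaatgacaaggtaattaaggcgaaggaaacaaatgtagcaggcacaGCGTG
UGT1A6, chr2:233692640-233692939, plus strand: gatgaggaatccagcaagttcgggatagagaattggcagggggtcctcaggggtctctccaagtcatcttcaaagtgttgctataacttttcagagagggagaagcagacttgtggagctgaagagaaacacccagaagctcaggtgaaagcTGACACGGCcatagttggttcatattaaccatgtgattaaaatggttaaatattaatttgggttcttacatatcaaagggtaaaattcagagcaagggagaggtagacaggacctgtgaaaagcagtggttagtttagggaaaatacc
Over all 9 windows, GCGTG was found in 6 (UGT1A3, UGT1A4, UGT1A7, UGT1A8, UGT1A9 and the upstream start of UGT1A6), against 36.5% of 35116 promoter windows of the same length. TGACNNNGC was in 2 (UGT1A5 and the printed start of UGT1A6), against 13.3%. The UGT1A1 window holds neither and so has no capitals. Sequence outside the 300 bases was not searched, so elements farther from the start cannot be seen here. A match is a description of letters and shows no binding. Windows of related members are alike in sequence, so their matches are not separate finds, and a surplus over 36.5% was not tested. The matches of UGT1A7, UGT1A8 and UGT1A9 lie in similar stretches. UGT1A3 and UGT1A4 share a match 45 bases after the annotated start.

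Counts on named genes came to 37465148 to 45682722 in formononetin libraries and 30848848 to 36243606 in control libraries. Hepatocyte markers were abundant in all of them (8 of 8 detected, TF and ALB at the highest mean CPM in both groups), summing to 17364 to 18207 CPM with formononetin and 25420 to 26288 CPM in control. CPM are counts scaled to a library total of 1000000, here with TMM-scaled totals. Of 20 markers of other cell types, COL1A2, COL3A1, DCN, LUM, PTPRC, CD3E and SI had 0 counts in every library. Others were detected: the leukocyte list's LYZ averaged 982 CPM with formononetin and 1234 CPM in control, and its CD68 6.73 CPM with formononetin and 3.35 CPM in control. VIL1 of the intestinal list averaged 444 CPM with formononetin and 486 CPM in control, and PECAM1 of the endothelial list 25.8 CPM with formononetin and 23.2 CPM in control. Their part in the results was not tested. Formononetin replicate 3 was the deepest library and stood apart from the other formononetin libraries in how its UGT1A counts were split. Of 22230 genes that passed a filter on low counts, 4596 or 20.7% were called at a Benjamini-Hochberg adjusted p under 0.05 (quasi-likelihood test of edgeR), 12.0% raised and 8.71% lowered. The median log2 fold change over all tested genes was -0.01.

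Formononetin libraries held far more UGT1A transcript. The 9 members together had 5579, 5281 and 5309 counts in formononetin replicates 1 to 3, against 551, 562 and 481 counts in control replicates 1 to 3. In CPM the sum was 138.4, 138.5 and 117.2 with formononetin and 18.1, 15.7 and 14.2 in control. The groups lay far apart, and no library was out of step with its group. The sum averaged 131 ± 12.3 CPM in formononetin and 16.0 ± 1.99 CPM in control libraries (SD, n = 3 each), a log2 fold change of 3.04 ± 0.11 (estimate ± standard error; edgeR quasi-likelihood test on the whole table with the members replaced by their sum, adjusted p = 1.50e-05). In bulk libraries, more transcript per cell and more cells with the transcript cannot be told apart.

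Of the 9 members, 6 passed the filter on low counts. Among these 6, UGT1A1, UGT1A3, UGT1A4 and UGT1A5 were raised, none was lowered, and UGT1A6 and UGT1A9 did not pass the test, beside 12.0% raised among all tested genes. The filter keeps genes that reach enough counts in 3 libraries, so a gene could enter through the formononetin group alone. Control libraries alone would not have kept UGT1A4 (17, 10 and 3 counts in control replicates 1 to 3), UGT1A5 (0, 12 and 2) or UGT1A9 (16, 8 and 6). These genes needed formononetin libraries to be tested, so a difference was partly built into their passing the filter. UGT1A7, UGT1A8 and UGT1A10 were below it. All formononetin libraries lay above all control libraries for UGT1A1, UGT1A3 and UGT1A4, as they did for 20.8% of tested genes. Changes of 3 or more on the log2 scale that passed the test were found in 12 of 22230 genes (0.054%), and UGT1A1, UGT1A4 and UGT1A5 were among them. Of these, UGT1A4 and UGT1A5 would not have been tested without their formononetin libraries.

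UGT1A1 (ENSG00000241635, chr2:233760248-233773299), the bilirubin-conjugating enzyme, carried most of the rise. It had 4322, 4169 and 4196 counts in formononetin replicates 1 to 3, against 236, 214 and 196 in control replicates 1 to 3, which is 107.2, 109.3 and 92.6 CPM against 7.76, 5.98 and 5.78 CPM. The values were close to each other within each group and the groups were well apart. The mean was 103 ± 9.09 CPM in formononetin and 6.51 ± 1.09 CPM in control libraries (SD, n = 3 each), a log2 fold change of 3.99 ± 0.13, or 15.9-fold (edgeR, adjusted p = 1.16e-05). Of 10397 genes whose mean log2 CPM reached 3, UGT1A1 ranked 3 by log2 fold change. Its row supplied 83.7% of the gain in CPM over the locus. The assignment of reads in the common exons is not given, so this row may hold reads of other members.

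UGT1A3 (ENSG00000243135, chr2:233729108-233773299), known for conjugating bile acids, had 257, 172 and 776 counts in formononetin replicates 1 to 3, against 103, 78 and 83 in control replicates 1 to 3. In CPM this was 6.38, 4.51 and 17.1 with formononetin and 3.39, 2.18 and 2.45 in control. All formononetin libraries were above all control libraries, but formononetin replicate 3 was 3.80 times replicate 2. The log2 fold change was 1.81 ± 0.50 (edgeR, adjusted p = 0.0404). It was 1.02 without formononetin replicate 3, and the call was lost when formononetin replicate 1 or any control library was left out (adjusted p up to 0.127), with limma voom (0.0943) and with no low-count filter (0.0621).

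UGT1A4 (ENSG00000244474, chr2:233718778-233773299), which attaches glucuronic acid to the nitrogen of amines, showed the opposite order of formononetin libraries. It had 387, 297 and 72 counts in formononetin replicates 1 to 3, against 17, 10 and 3 in control replicates 1 to 3, or 9.60, 7.79 and 1.59 CPM against 0.559, 0.279 and 0.0885 CPM. The groups did not overlap, although each spanned a ratio of about 6 between its highest and lowest library (6.04 with formononetin, 6.32 in control). The log2 fold change was 4.37 ± 0.81 (edgeR, adjusted p = 0.00948), and the call was lost with limma voom (adjusted p = 0.103).

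UGT1A5 (ENSG00000240224, chr2:233712992-233773299), a close relative of UGT1A4 that is usually scarce in liver, had 151, 157 and 10 counts in formononetin replicates 1 to 3, against 0, 12 and 2 in control replicates 1 to 3. Formononetin replicate 3, at 0.221 CPM, lay below control replicate 2, at 0.335 CPM, so the groups overlapped. The log2 fold change was 4.24 ± 1.22 (edgeR, adjusted p = 0.0470). That call was lost without any 1 library but formononetin replicate 3 (adjusted p up to 0.138), with limma voom (0.298), under upper quartile scaling (0.0505) and with no low-count filter (0.0734).

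The counts of UGT1A3, UGT1A4 and UGT1A5, whose first exons are alike, moved against each other among the formononetin libraries. Of the counts on these 3 genes, UGT1A3 held 32.3% and 27.5% in formononetin replicates 1 and 2 and 90.4% in replicate 3, and 85.8%, 78.0% and 94.3% in control replicates 1 to 3. UGT1A4 held 48.7% and 47.4% in formononetin replicates 1 and 2 but 8.39% in replicate 3, and 14.2%, 10.0% and 3.41% in control. Their sum was steadier than its parts among formononetin libraries: 795, 626 and 858 counts in formononetin replicates 1 to 3, against 120, 100 and 88 in control replicates 1 to 3, or 18.4 ± 1.73 CPM against 3.11 ± 0.730 CPM (SD, n = 3 each). Among formononetin libraries the highest sum was 1.20 times the lowest, where the same ratio was 3.80 for UGT1A3, 6.04 for UGT1A4 and 18.6 for UGT1A5. In control libraries the ratio was 1.52 for the sum, near the 1.56 of UGT1A3 alone, and 6.32 for UGT1A4. Summed in the whole table, the 3 genes rose by 2.56 ± 0.17 on the log2 scale (edgeR, adjusted p = 0.000226), a sum chosen after the values were seen. Whether the split in formononetin replicate 3 comes from the counting was not tested. Whether part of the rise of this sum is reads of UGT1A1 in the common exons was not tested either.

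UGT1A6 (ENSG00000167165, chr2:233691607-233773300), which conjugates small planar phenols, was near UGT1A1 in control cells, per kilobase of the full transcript, and did not pass the test with formononetin. It had 372, 459 and 233 counts in formononetin replicates 1 to 3, against 179, 212 and 191 in control replicates 1 to 3, or 9.23, 12.03 and 5.14 CPM against 5.89, 5.92 and 5.63 CPM. Formononetin replicates 1 and 2 were above every control library and replicate 3 was below all of them. The log2 fold change was 0.60 ± 0.28 (edgeR, adjusted p = 0.185). Without formononetin replicate 3 it was 0.86 and passed (adjusted p = 0.0146), and without formononetin replicate 2 it was 0.30.

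UGT1A9 (ENSG00000241119, chr2:233671853-233773300), which acts on bulky phenols and is among the main forms of normal liver, was scarce. It had 87, 18 and 10 counts in formononetin replicates 1 to 3, against 16, 8 and 6 in control replicates 1 to 3. The groups overlapped, and formononetin replicate 1 stood alone. The log2 fold change of 1.63 ± 0.88 did not pass the test (edgeR, adjusted p = 0.247) and was 0.16 without formononetin replicate 1.

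The other members are known from the gut and upper airway rather than the liver, and they were near or at the limit of detection. UGT1A7 had 3, 9 and 11 counts in formononetin replicates 1 to 3 and 0, 28 and 0 in control replicates 1 to 3. UGT1A8 had 1 count in formononetin replicate 3 and none elsewhere, and UGT1A10 had 0 counts in all 6 libraries. A count of 0 allows up to 3 counts, which is 0.0662 to 0.0787 CPM in formononetin and 0.0838 to 0.0987 CPM in control libraries, and this limit covers counting error only.

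**Figure D2:**
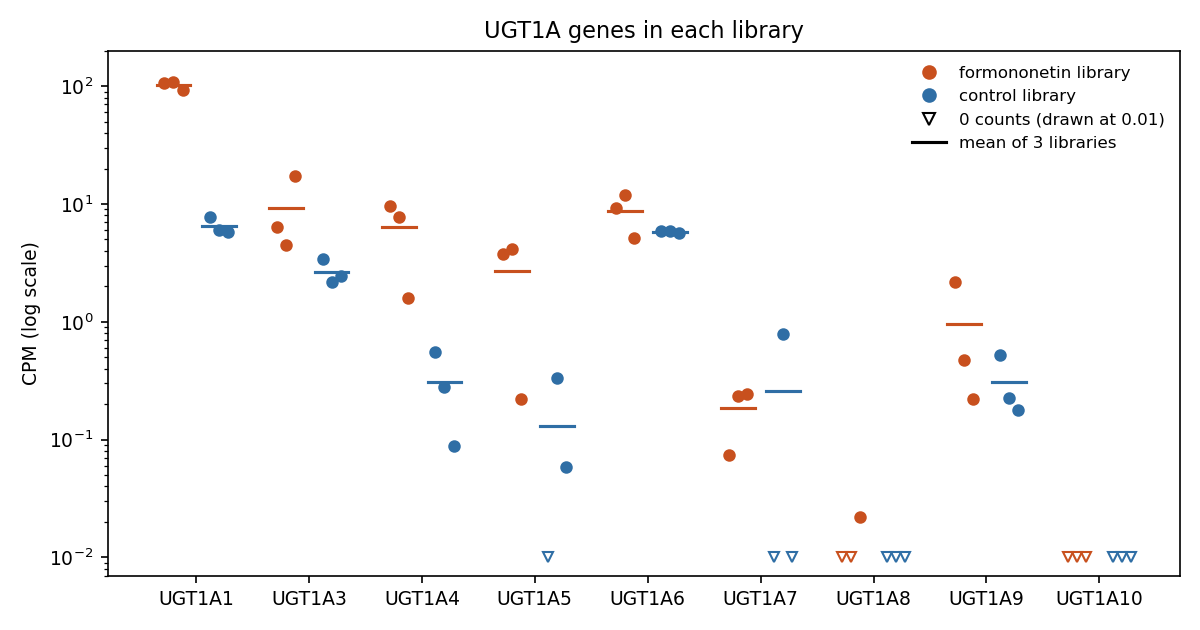
CPM of each UGT1A gene on a log axis, with formononetin libraries to the left of control libraries for each gene, bars at the mean of 3 libraries and open triangles for libraries with 0 counts, drawn at 0.01. UGT1A1 lies at 92.6 to 109.3 CPM with formononetin and 5.78 to 7.76 CPM in control, while UGT1A5, UGT1A6, UGT1A7 and UGT1A9 overlap between groups; the mean of UGT1A8 is below the axis markers and not drawn.

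Per kilobase of the full transcript, which lets genes be compared, the level of UGT1A1 was 43.3 ± 3.81 CPM per kb in formononetin libraries (SD, n = 3). UGT1A3 followed at 3.95 ± 2.88, UGT1A6 at 3.55 ± 1.40, UGT1A4 at 2.65 ± 1.76 and UGT1A5 at 1.15 ± 0.917 CPM per kb, neighbours that did not differ beyond their spread. In control libraries UGT1A1 was at 2.73 ± 0.459 and UGT1A6 at 2.35 ± 0.0637 CPM per kb, a difference within the spread, with UGT1A3 next at 1.13 ± 0.269 CPM per kb. The order depends on the length used. All annotated exons together cover 4467 bases in UGT1A1 and 5180 in UGT1A6, more than the full transcript, but 2364 in UGT1A3, the same as its full transcript. UGT1A4 (0.129 ± 0.0992), UGT1A9 (0.128 ± 0.0785), UGT1A7 (0.112 ± 0.194) and UGT1A5 (0.0560 ± 0.0763) were not separable in control cells. UGT1A9 reached 0.393 ± 0.436 and UGT1A7 0.0790 ± 0.0409 CPM per kb with formononetin.

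The groups also lay apart in the make-up of the locus. UGT1A1 held 77.5, 78.9 and 79.0% of the UGT1A counts in formononetin replicates 1 to 3, against 42.8, 38.1 and 40.7% in control replicates 1 to 3. UGT1A6 held 6.67, 8.69 and 4.39% with formononetin and 32.5, 37.7 and 39.7% in control. For both genes the groups did not overlap, and the difference was 37.9 percentage points for UGT1A1 and -30.1 for UGT1A6 (exact permutation test, two-sided, p = 0.1 each, the smallest value that 3 against 3 libraries allow, and 0.333 after Benjamini-Hochberg adjustment over 10 shares). There were 12.9 ± 4.60 UGT1A1 counts for each UGT1A6 count with formononetin, against 1.12 ± 0.174 in control (SD, n = 3 each; exact permutation test, p = 0.1). UGT1A3, UGT1A4 and UGT1A5 together held 14.1 ± 2.16% with formononetin and 19.3 ± 2.17% in control. The rows other than UGT1A1, summed, held 28.3 ± 3.39 CPM in formononetin libraries against 9.50 ± 0.998 CPM in control libraries (log2 fold change 1.58 ± 0.12, edgeR, adjusted p = 0.000344). This sum was also chosen after the values were seen. How reads in the common exons were assigned is not given, so the sum may hold reads of UGT1A1. Whether the other members rose apart from UGT1A1 was not tested.

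**Figure D3:**
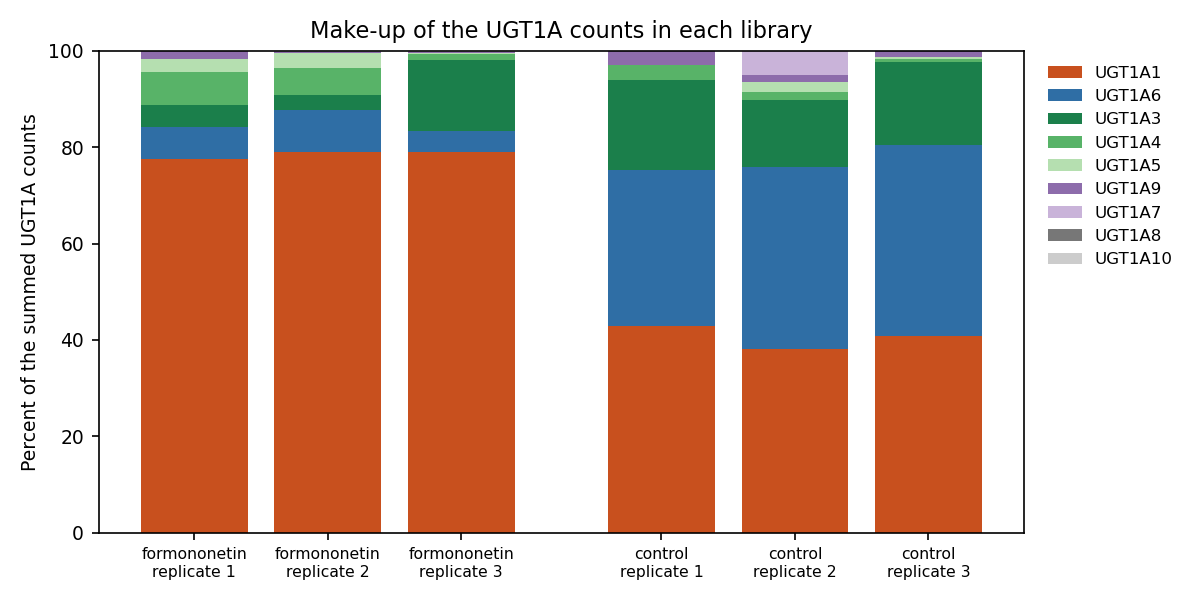
Percent of the summed UGT1A counts held by each gene, with a stacked bar for each library, formononetin libraries on the left and control libraries on the right. UGT1A1 holds 77.5 to 79.0% with formononetin and 38.1 to 42.8% in control, and the green bands of UGT1A3, UGT1A4 and UGT1A5 divide differently in formononetin replicate 3.

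**Figure D4:**
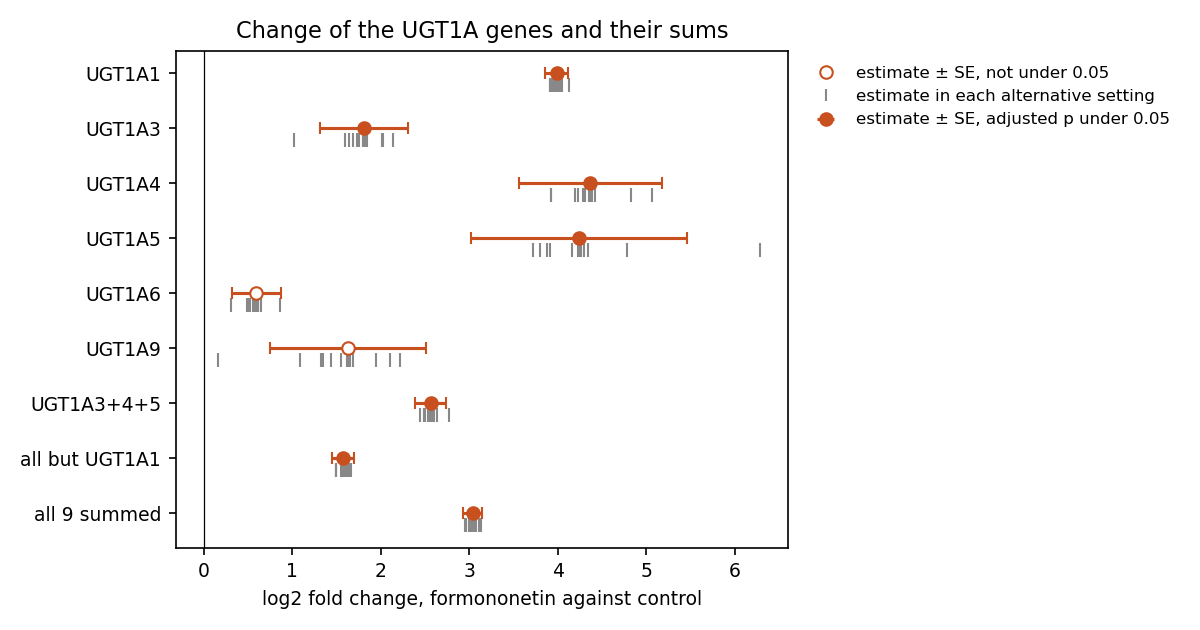
Log2 fold change of formononetin against control for the 6 tested genes and 3 sums, with bars for the standard error, filled points for adjusted p under 0.05 and grey ticks for the estimates in the alternative settings. UGT1A1 and the sums stay within narrow ranges, 3.91 to 4.13 for UGT1A1 and 2.96 to 3.14 for all 9 genes, while UGT1A5 spans 3.72 to 6.29.

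The table also lists 8 other rows inside the locus, all pseudogenes or antisense models, picked by position after the values were seen. Together they had 307 counts in formononetin and 58 in control libraries. Only 2 had enough counts to be tested, both through the formononetin group alone, so a difference was built into their passing the filter. Both were raised, beside 12.0% of all tested genes. UGT1A2P, a pseudogene on the UGT1A strand, had 17, 25 and 30 counts in formononetin replicates 1 to 3 and 7, 2 and 1 in control replicates 1 to 3 (log2 fold change 2.48 ± 0.59, edgeR, adjusted p = 0.0253). DNAJB3, annotated on the opposite strand, had 25, 23 and 40 counts with formononetin and 4, 8 and 3 in control (2.21 ± 0.40, adjusted p = 0.00818). The strand setting of the counting is not given, so reads from an intron of UGT1A and from DNAJB3 cannot be told apart. With these rows added, the sum over the locus changed by 3.01 ± 0.11.

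Of the genes beside the locus, taken as 10 listed neighbours, 7 were tested, 2 were raised and none lowered, with a median log2 fold change of 0.34, beside 12.0% raised among all tested genes. One of the raised genes is DNAJB3, which lies inside the locus, so 1 of 6 tested genes outside it was raised. The other is HJURP, a chaperone of the centromeric histone 60.1 kb beyond its end, at 45.1 ± 2.29 CPM in formononetin and 26.8 ± 0.384 CPM in control libraries (0.75 ± 0.06, edgeR, adjusted p = 0.000423). USP40, a deubiquitinase 50.9 kb before the locus, was at 67.5 ± 1.90 CPM with formononetin and 65.4 ± 3.23 CPM in control and did not pass the test (0.05 ± 0.06, adjusted p = 0.621; -0.03 under upper quartile scaling). MROH2A, 2.37 kb beyond the end, had 0.382 ± 0.178 CPM with formononetin and 0.187 ± 0.137 CPM in control (1.04 ± 0.64, adjusted p = 0.307).

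Of 7 listed genes that make, deliver or draw off UDP-glucuronic acid, the donor for all UGT1A enzymes, 4 were raised and none lowered. UXS1, which draws it off, is counted among the 4. The median log2 fold change was 0.23. Among all tested genes 12.0% were raised and 8.71% lowered. UGDH, which oxidises UDP-glucose to UDP-glucuronic acid, had 598.9, 560.7 and 577.4 CPM in formononetin replicates 1 to 3, against 351.4, 374.2 and 354.5 CPM in control replicates 1 to 3. The groups were well apart (log2 fold change 0.69 ± 0.04, edgeR). SLC35D1, which carries the donor into the endoplasmic reticulum, was at 99.1 ± 2.04 CPM with formononetin and 76.1 ± 0.952 CPM in control (0.38 ± 0.04). PGM2 changed by 0.60 ± 0.09, and UXS1, which draws UDP-glucuronic acid off to UDP-xylose, by 0.23 ± 0.06. UXS1 lost its call when any formononetin library, control replicate 2 or control replicate 3 was left out (adjusted p up to 0.112, edgeR) and under upper quartile scaling (0.121). UGP2, which makes UDP-glucose, was at 87.4 ± 2.76 CPM with formononetin and 92.9 ± 6.33 CPM in control and did not pass the test (-0.09 ± 0.06, adjusted p = 0.363). PGM1 (-0.04 ± 0.06, edgeR, adjusted p = 0.687) and SLC35D2 (-0.08 ± 0.08, edgeR, adjusted p = 0.548) did not pass either.

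No UDP-glycosyltransferase outside the locus passed the test as raised. Of 13 listed genes 5 passed the low-count filter, 2 of them were lowered, none was raised, and the median log2 fold change was -0.42, beside 8.71% lowered and 12.0% raised among all tested genes. UGT2B10, which conjugates nicotine and other amines, had 33.9, 30.9 and 33.2 CPM in formononetin replicates 1 to 3, against 43.8, 44.6 and 42.6 CPM in control replicates 1 to 3 (-0.42 ± 0.06, edgeR, adjusted p = 0.00334). UGT2B4, a bile acid-conjugating form, was at 1.92 ± 0.152 CPM with formononetin and 3.82 ± 0.950 CPM in control (-0.99 ± 0.21, adjusted p = 0.0147), a call lost without formononetin replicate 2 or 3 (adjusted p up to 0.0528). UGT2A3 (-0.21 ± 0.06) and UGT2B7 (-0.20 ± 0.06) missed the threshold at adjusted p of 0.0554 and 0.0584 (edgeR). UGT2B11 was at -0.54 ± 0.21 (adjusted p = 0.116). In all 5 tested genes every formononetin library lay below every control library, as in 18.7% of all tested genes. UGT2A1, UGT2A2, UGT2B28, UGT3A1, UGT3A2 and UGT8 had 0 counts in all libraries. Members of the UGT2B family are similar in sequence, so their split is uncertain too.

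Of 9 genes for transport and hydrolysis of glucuronides 7 were tested, 5 were raised and none lowered (median log2 fold change 0.34), beside 12.0% raised among all tested genes. The pump gene ABCC4 did not pass the test (0.20 ± 0.06, edgeR, adjusted p = 0.0553). ABCC2, the pump that sends bilirubin glucuronides into bile, was at 1268 ± 60.9 CPM in formononetin and 809 ± 24.9 CPM in control libraries (0.65 ± 0.05). ABCC3, which sends glucuronides into blood, changed by 0.45 ± 0.05, ABCG2 by 0.99 ± 0.09 and ABCC1 by 0.34 ± 0.04. GUSB, the lysosomal enzyme that cleaves glucuronides, changed by 0.26 ± 0.06 (edgeR, adjusted p = 0.0277), and this call was lost without any 1 of 5 libraries (formononetin replicate 1 or 2 or any control replicate, adjusted p up to 0.0899) and under upper quartile scaling (0.0848). SLCO1B1, the hepatic uptake carrier, had 0 counts with formononetin and 3 in control libraries in all. Of 4 genes that form bilirubin, the substrate of UGT1A1, 3 were raised and none lowered (median 0.48), against the same 12.0%. BLVRB did not pass, and its groups overlapped (0.30 ± 0.20, edgeR, adjusted p = 0.341). HMOX1, the inducible heme oxygenase, was at 46.4 ± 2.64 CPM with formononetin and 23.5 ± 2.95 CPM in control (0.98 ± 0.10), HMOX2 changed by 0.59 ± 0.07 and the reductase gene BLVRA by 0.36 ± 0.08. BLVRA lost its call when replicate 2 or 3 of either group was left out (adjusted p up to 0.0661, edgeR).

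The listed regulators of UGT1A transcription, which are transcription factors and KEAP1, moved in both directions. Of 14 listed 13 were tested, 3 were raised and 3 lowered, with a median log2 fold change of 0.05, beside 12.0% raised and 8.71% lowered among all tested genes. AHRR, the repressor that the aryl hydrocarbon receptor induces, had 3.05, 3.30 and 2.19 CPM in formononetin replicates 1 to 3, against 0.395, 0.698 and 0.708 CPM in control replicates 1 to 3 (2.23 ± 0.27, edgeR). NR1I2, the pregnane X receptor, was at 20.9 ± 2.0 CPM with formononetin and 11.3 ± 2.29 CPM in control (0.88 ± 0.15), and HNF4A changed by 0.44 ± 0.09. NR1H4, the bile acid receptor FXR, fell (-0.74 ± 0.06), as did AHR itself (-0.24 ± 0.06). AHR lost its call when replicate 2 or 3 of either group was left out (adjusted p up to 0.0892, edgeR), with library totals as the only scaling (0.0599) and with no low-count filter (0.0689). NFE2L2, which encodes NRF2, had 228.0, 236.9 and 198.7 CPM in formononetin replicates 1 to 3, against 208.7, 196.2 and 59.0 CPM in control replicates 1 to 3. Control replicate 3 was far below the rest, and the gene did not pass the test (0.52 ± 0.41, adjusted p = 0.428). CDX2, the intestinal factor, was at 0.257 ± 0.0445 CPM with formononetin and 0.199 ± 0.0520 CPM in control and was below the filter.

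Of 13 other target genes of these factors 11 were tested, 8 were raised and none lowered, beside 12.0% raised among all tested genes. Their median log2 fold change was 1.28, the same with CYP1A2 set against 3 counts in each control library. CYP1A1, the classic target of the aryl hydrocarbon receptor, was at 472 ± 19.1 CPM with formononetin and 2.28 ± 0.399 CPM in control (7.69 ± 0.12, edgeR). CYP1A2 had 63, 50 and 55 counts in formononetin libraries and none in control libraries. Its formononetin mean was 15.1 times a level of 3 counts in each control library. That level covers counting error only, and 1 count may not be 1 read, so the ratio is no strict lower bound. It is counted among the 8 raised genes, but it passed the filter only through formononetin libraries and could only be called raised. ALDH3A1 changed by 3.86 ± 0.14 and GCLM, a target of NRF2, by 1.58 ± 0.08. CYP3A4, a main target of the pregnane X receptor, was at 0.358 ± 0.176 CPM with formononetin and 0.556 ± 0.294 CPM in control and did not pass the test (-0.65 ± 0.51, adjusted p = 0.424).

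**Figure D5:**
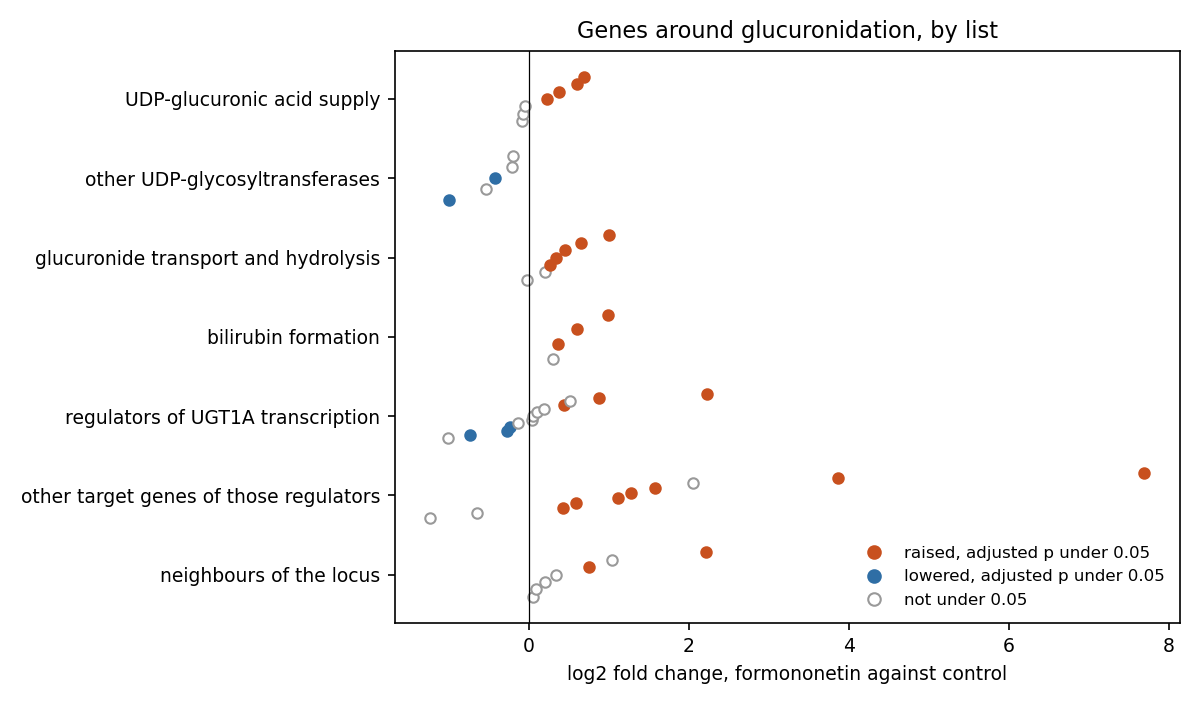
Log2 fold change of formononetin against control for each tested gene of the 7 lists, filled where adjusted p is under 0.05. Supply, transport and bilirubin genes lie mostly to the right of 0 and the other UDP-glycosyltransferases to the left; CYP1A2, with 0 counts in control libraries, is not drawn.

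The genes whose level followed the summed locus most closely over the 6 libraries were NCR3LG1, CES1P1, SQSTM1, GCKR and CTTN, with a Pearson r of log2 CPM of at least 0.999 over 10396 genes whose mean log2 CPM reached 3. All 6 libraries enter these values, and most of each r is the difference between the groups. The genes differ widely in size of change: GCKR, the regulator of glucokinase, was at 77.2 ± 3.95 CPM with formononetin and 25.0 ± 1.85 CPM in control (log2 fold change 1.63), and SQSTM1, an autophagy receptor, was at 902 ± 19.3 CPM with formononetin and 419 ± 8.99 CPM in control (1.11), while CTTN changed by 0.22.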

How the data were processed

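RNA sequencing of HepG2 cells gave 6 libraries, 3 per group. The authors deposited a table of raw counts, whole numbers per gene. The submitters' processing notes name GRCh38, STAR 2.5.3a and StringTie 1.3.1c without roles; how reads were counted, on which strand and against which annotation is not given in the sources used here. The value 3 was more frequent than 2 in every library (1693 to 1848 rows against 1576 to 1681), so 1 count may not be 1 read. Of 62729 rows, 2165 are assembled loci with no gene name (3.82 to 5.62% of counts), left out of library sizes and tests. They carry no coordinates, so whether any overlaps UGT1A was not tested. Symbols came from a table matching 60295 identifiers and from GENCODE 29, which alone names UGT1A3 and UGT1A5 under the identifiers used.

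After filterByExpr and TMM scaling, edgeR 4.0.16 (R 4.3.3) tested formononetin against control with its quasi-likelihood F test ( group as the only term, two-sided, Benjamini-Hochberg over all tested genes, threshold 0.05), tested on simulated data. Standard errors were taken as the log2 fold change over the root of F. Shares of counts were compared by exact permutation tests. First exons were aligned globally with Biopython 1.88. Within groups, chi-square per degree of freedom between replicates was 15.2 to 39.2, so no library was a copy.

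The members, lists and tests were chosen with earlier results of these data known. Named genes were all members, and of each list up to 4 called genes with the largest change and up to 2 in the other direction, with uncalled genes as values. GUSB, and the rows inside the locus, fall outside this rule. Of the called regulators, 1 is not reported here. Likeness was the 5 highest correlations with the summed locus. Alternatives were DESeq2 1.42.0, limma 3.58.1 voom, other scalings and filters, a replicate term, the assembled loci, and leaving out each library. Depth limits the scarce members, UGT1A5 and UGT1A7 to UGT1A10.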

Additional observations from a re-analysis of the deposited data

How the results depend on the processing

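The summed locus (log2 fold change 2.96 to 3.14), UGT1A1 (3.91 to 4.13) and the sum of UGT1A3, UGT1A4 and UGT1A5 (2.45 to 2.77) kept their direction and their call in all 16 alternatives. The number of UGT1A genes changed, all raised, was 4 in the main analysis, 1 with limma voom, 2 with no low-count filter and 2 to 5 when 1 library was left out. The cause was not tested. Over all genes, leaving out 1 library gave 3049 to 3667 genes changed, 1703 to 2189 raised and 1272 to 1478 lowered, with fewer samples in each fit. Upper quartile scaling gave 1813 raised and 2737 lowered. Lowered UDP-glycosyltransferases outside UGT1A numbered 4 under upper quartile scaling or a filter of 1 CPM in 3 libraries and 1 to 2 without 1 library. Lowered regulators numbered 1 to 3 without 1 library. Raised neighbours numbered 1 under the filter of 1 CPM, and 1 neighbour was lowered with no low-count filter. The share of UGT1A1 differed by 34.6 percentage points per kb of all annotated exons of each gene, and by 36.7 to 39.1 without 1 library. For UGT1A6 the difference was -22.8 percentage points per kb of all annotated exons, and -32.1 to -28.5 without 1 library. Signs turned for genes that had not passed the test: KEAP1 (-0.036), PPARA (-0.032) and USP40 (-0.033) under upper quartile scaling, and SLCO2B1 with library totals (0.021). Without 1 library, log2 fold changes spanned -0.040 to 0.12 for KEAP1, -0.081 to 0.21 for PPARA, -0.24 to 0.13 for SLCO2B1 and -0.11 to 0.015 for PGM1, and the difference in the share of UGT1A7 spanned -2.35 to 0.14 percentage points.

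Replicate numbers did not pair the libraries: deviations of same-numbered libraries from their group means correlated at -0.02 to 0.01. With a replicate block, 3283 genes were called in place of 4596 and the summed locus changed by 3.04 (edgeR, adjusted p = 0.000343), while UGT1A3 (1.59, adjusted p = 0.0607), UXS1 (0.0730), GUSB (0.0566), BLVRA (0.0615) and AHR (0.0692) lost their calls. Counts of 0 to 28 leave UGT1A7, UGT1A8 and UGT1A10 without a usable comparison at this depth.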
